A study of Mus musculus with 11 samples.

Results

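The Cbfb binding profile of regulatory T (Treg) cells is a list of single-base positions called from 1 chromatin immunoprecipitation (ChIP-seq) library. Every position that the authors deposited for that library was a member, and the members were ranked by the authors' score, a number per position whose formula is not given in the sources used here. Of 161760 deposited positions, 121632 had a false discovery rate (FDR, the authors' q-value) of at most 0.01 and were described here. They were split by rank into the top 500, the next 1500, the next 8000 and the remaining 111632, called the rest. The whole series held 1061984 deposited positions and peaks in 6 lists.

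The study mapped Foxp3, Elf1, Ets1 and Cbfb in mouse T cells with 11 samples in 8 groups. Lymph nodes and spleen came from mice about 8 weeks old, cells were sorted by a GFP reporter of Foxp3, and chromatin was fixed with formaldehyde and sonicated. Treg cells were CD4+ Foxp3-positive, and the other group, called CD4 here, was CD4+ Foxp3-negative. The lists used beside Cbfb were Elf1 and Ets1 in Treg and in CD4 (1 library each) and 2886 Foxp3 peaks of 200 bp that the authors called on combined Treg replicates. The Cbfb antibody was a commercial one listed under PEBP2beta, another name of the same protein, and the labels used here name neither strain nor sex of the mice, nor how many were pooled. The CD4 Cbfb library, called low in quality by its label, and the libraries of input chromatin stayed out of the comparisons. A list of positions holds no expression values, so the cell label could not be set against marker genes.

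Cbfb is the beta subunit of core binding factor. It does not bind DNA itself, but pairs with a Runx protein and stabilises its hold on DNA, so a Cbfb position marks chromatin where a Runx complex may sit. Runx complexes act in T cell development, in the silencing of the Cd4 gene in CD8 cells and in Treg cells, where Runx1 can bind Foxp3 and Cbfb helps to keep Foxp3 expression. Elf1 and Ets1 belong to the ETS family, and Ets1 and Runx1 are known to bind some sites side by side. Positions are given in mouse build mm9. No mm9 genome or annotation was used here, so positions carry neither gene names nor sequences.

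Among the 500 positions with the highest score, 159 (31.8%, 95% interval 27.7 to 36.1) had one of the 10000 highest Treg Elf1 or Ets1 positions within 200 bp. Over all 121632 positions the share was 1.6%. It fell to 8.67% (7.29 to 10.2) in the next 1500, to 3.43% (3.04 to 3.85) in the next 8000 and to 1.24% (1.17 to 1.30) in the rest. The same positions moved by 10 kb up and down, which keeps their neighbourhood, gave 1.20, 0.800, 0.463 and 0.389% in the same order. The excess over the moved positions was thus 26.5-fold in the top 500 and 3.18-fold in the last group. Intervals are exact Clopper-Pearson intervals that cover counting error only, each library stands alone, and its depth is unknown, so no comparison here has a replicate check. When Cbfb positions were ordered by their fold enrichment, not their score, 5.60% of the 500 highest had such a partner.

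**Figure D1:**
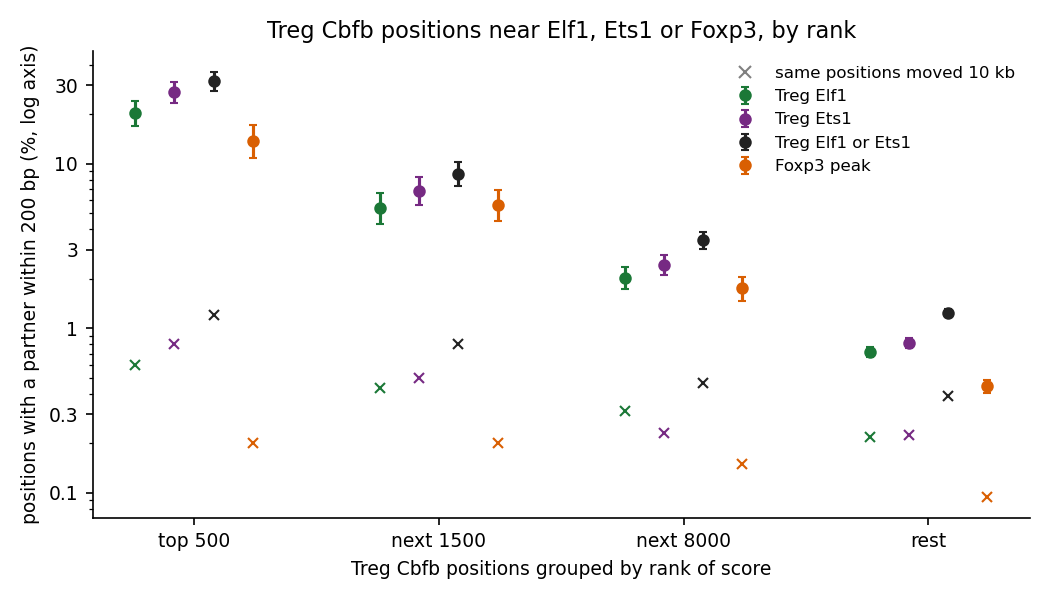
Share of Treg Cbfb positions (log axis, percent) with a top 10000 Treg Elf1 position, Ets1 position, either of them, or a Foxp3 peak within 200 bp, for 4 groups of Cbfb rank. Circles are the observed shares with exact 95% intervals and crosses the same positions moved by 10 kb; the share with either ETS factor falls from 31.8% to 1.24%, and every circle lies above its cross.

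The decline was steep within the top 500. Of ranks 1 to 100, 75 had an Elf1 or Ets1 position (75%, 65.3 to 83.1), against 50 of the next 150 (33.3%, 25.9 to 41.5) and 34 of ranks 251 to 500 (13.6%, 9.61 to 18.5). Within the next 8000 the decline was not steady: the first 3000 of them had 3.20% (2.60 to 3.89) and the other 5000 had 3.56% (3.06 to 4.11), with overlapping intervals.

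Ets1 was the more frequent partner at the highest ranks. In the top 500, 136 Cbfb positions (27.2%, 23.3 to 31.3) had a Treg Ets1 and 102 (20.4%, 17.0 to 24.2) a Treg Elf1 position, where all Cbfb positions had 1.1 and 0.944%. The intervals of the 2 factors overlap, but both were counted on the same 500 positions, so the overlap does not measure their difference. Ets1 alone was found at 57 of them and Elf1 alone at 23, and the difference was not tested. Ets1 partners also stood higher in their own list, with a median rank of 1038 and 33.8% of them among the 500 highest Ets1 positions, against a median rank of 3349.5 and 9.80% for Elf1. Read from the other side, 15.6% (12.5 to 19.1) of the 500 highest Treg Ets1 positions had a top 10000 Cbfb position, where 4.39% of all 10000 had one. The 500 highest Treg Elf1 positions had one at 5.20% (3.42 to 7.53), where 3.53% of all 10000 did. The CD4 lists gave 14.4% (11.4 to 17.8) for Ets1, against 4.83% over its 10000, and 3.80% (2.30 to 5.87) for Elf1, against 3.82%. So the highest Ets1 positions stood out from the rest of their list in both cell types, while the Elf1 intervals in the top 500 reached the share of the whole list.

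The partner lay close to the Cbfb position. In the top 500 the median distance was 33 bp for Elf1 and 42.5 bp for Ets1, and 61.8 and 56.6% of the partners lay within 50 bp. In the next 1500 the medians were 64 and 67 bp. Over all Cbfb positions the medians were 67 bp for Elf1 and 70 bp for Ets1, and 39.5 and 39.2% of the partners lay within 50 bp. Beyond 200 bp, no step of 50 bp held more than 0.800% of the top 500 for Elf1 or 0.600% for Ets1, against 12.6 and 15.0% in the first 50 bp.

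**Figure D2:**
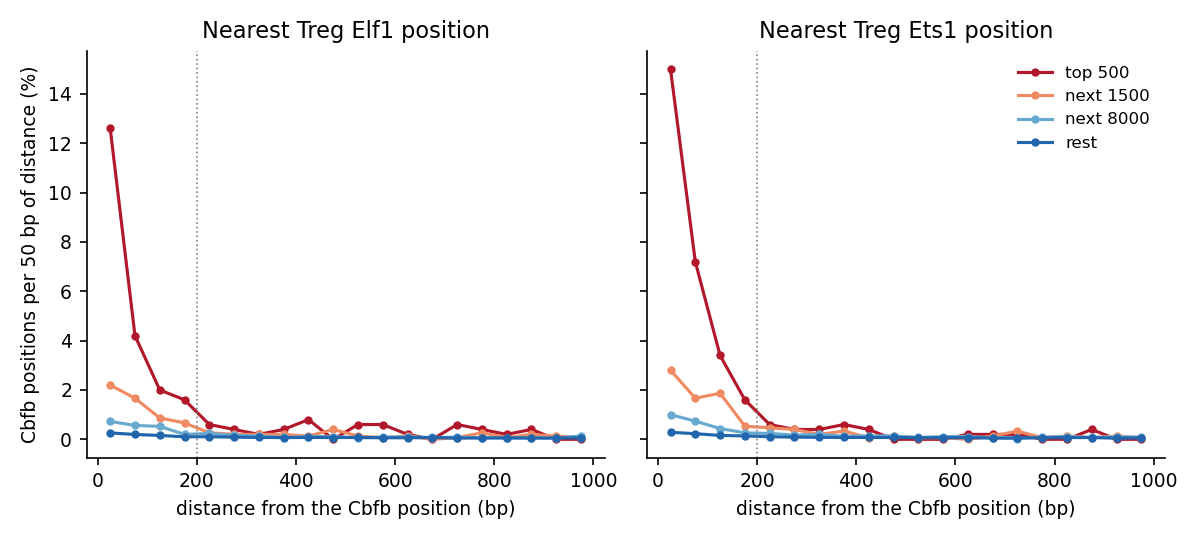
Percent of Treg Cbfb positions whose nearest top 10000 Treg Elf1 (left) or Treg Ets1 (right) position falls in each step of 50 bp up to 1000 bp, 1 line for each group of Cbfb rank. The dotted line marks 200 bp; the lines peak in the first step, at 12.6 and 15.0% for the top 500, and are low and flat beyond 200 bp.

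By combination, 79 of the top 500 (15.8%) had both Treg factors, 57 (11.4%) had Ets1 alone, 23 (4.60%) had Elf1 alone and 341 (68.2%) had neither. Over all Cbfb positions the shares were 0.45, 0.654, 0.494 and 98.4% in the same order. All 4 lists, Elf1 and Ets1 in Treg and in CD4, had a top 10000 position at 55 (11%), where the whole Cbfb list had 0.323%. The CD4 lists gave nearly the same share as the Treg lists, 30.6% (26.6 to 34.8) of the top 500 with either factor (1.57% over all). CD4 Elf1 was found at 20% (16.6 to 23.8) of them and CD4 Ets1 at 26.8% (23.0 to 30.9), where all Cbfb positions had 1.03 and 1.24%. Positions with a Treg but no CD4 partner numbered 22 (4.40%, where all Cbfb positions had 0.437%), and those with a CD4 but no Treg partner 16 (3.20%, where all had 0.413%). At the other end, 119 (23.8%, 20.1 to 27.8) had no deposited position of any of the 4 lists, at any score, within 1 kb, against 43.1% of all Cbfb positions.

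Foxp3 peaks were found mostly at Cbfb positions that had an ETS partner. A Foxp3 peak lay within 200 bp of 69 of the top 500 (13.8%, 10.9 to 17.1), where 0.65% of all Cbfb positions had one. The share was 5.60% (4.49 to 6.89), 1.75% (1.47 to 2.06) and 0.445% (0.407 to 0.486) at the lower ranks. In the top 500, 43.0% of positions with both Treg ETS factors and 47.4% of those with Ets1 alone were at a Foxp3 peak, against 17.4% with Elf1 alone and 4 of the 341 with neither (1.17%). In the next 1500 the values were 74.1, 46.9, 25.9 and 1.02%. None of the 119 positions that stood clear of all 4 lists was at a Foxp3 peak, which allows a share of up to 2.52% (3 counts of 119).

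A high score and a high fold enrichment were different things in this library. The fold enrichment is the authors' estimate of the ChIP signal over a control that the sources used here do not name. Its median was 7.84 in the top 500, 6.35 in the next 1500, 5.60 in the next 8000 and 4.36 in the rest. Yet 99 of the 500 highest scores (19.8%) were under 4-fold, where 43.7% of all positions were. The lower bound of the fold lay under 1 at 12.8, 24.6, 37.9 and 65.6% of positions in the 4 groups, and at 63% of all.

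**Figure D3:**
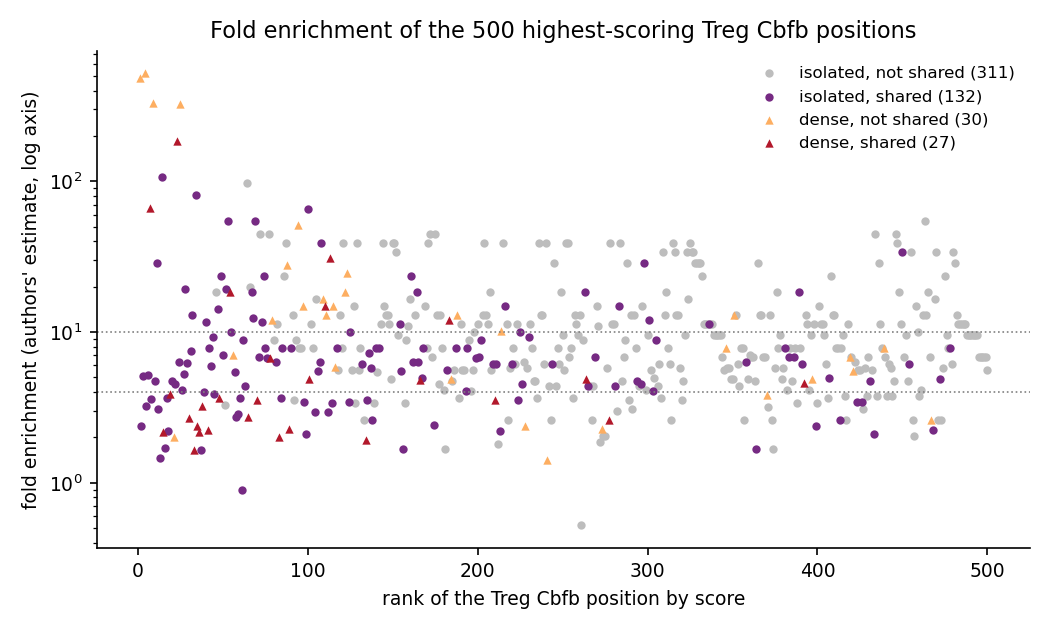
Fold enrichment (the authors' estimate, log axis) against rank for the 500 Treg Cbfb positions with the highest score. Purple circles and red triangles have a top 10000 Treg Elf1 or Ets1 position within 200 bp (132 isolated and 27 dense positions), grey circles and orange triangles have none, triangles mark locally dense positions, and the dotted lines are at 4-fold and 10-fold; shared positions are found at both high and low fold near rank 1.

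Positions of low fold shared their place with the ETS factors most often. In the top 500, 50 of the 99 under 4-fold (50.5%, 40.3 to 60.7), 75 of the 224 from 4-fold to under 10-fold (33.5%, 27.3 to 40.1) and 34 of the 177 at 10-fold or more (19.2%, 13.7 to 25.8) had a Treg Elf1 or Ets1 partner. The same order was found in each lower group of ranks, for example 5.17, 2.98 and 1.53% in the next 8000. It was also found at finer ranks, with 90.9, 83.9 and 52.8% at ranks 1 to 100, 50, 42.9 and 14.3% in the next 150, and 19.0, 15.4 and 8.24% in the last 250 of the top 500, although intervals of neighbouring classes overlap there. Positions of the top 500 with neither factor accordingly had a higher median fold estimate, 8.88, than positions with both, 4.85. The median lower bound of the fold did not show this order, with 2.00 for neither and 2.07 for both. Positions clear of all 4 lists within 1 kb made up 11.1% (5.68 to 19.0), 22.8% (17.4 to 28.8) and 32.2% (25.4 to 39.6) of the 3 fold classes.

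The shared positions of low fold differed from the others in further measures. Under 4-fold, the nearest Treg ETS position lay at a median of 7 bp, and 28 of 50 (56.0%) lay within 10 bp. From 4-fold to 10-fold the median was 40 bp and 17.3% lay within 10 bp, and at 10-fold or more the values were 45 bp and 14.7%. Their partners were weakly enriched too: 63.9% of the Treg Elf1 and 68.2% of the Treg Ets1 partners of Cbfb positions under 4-fold were themselves under 4-fold, where 3.05 and 28.9% of the 10000 highest Elf1 and Ets1 positions were. For Cbfb positions from 4-fold to 10-fold the shares were 12.5 and 13.6%. Foxp3 peaks were found at 10 of the 50 shared positions under 4-fold (20%, 10.03 to 33.7), at 39 of 75 in the middle class (52.0%, 40.2 to 63.7) and at 16 of 34 in the highest (47.1%, 29.8 to 64.9). Rank moved with these values, since 30 of the 50 shared positions under 4-fold ranked 1 to 100. There 1 of the 30 was at a Foxp3 peak, against 11 of 26 and 10 of 19 in the higher classes, while in the next 150 ranks 5 of 12, 16 of 30 and 3 of 8 were. What sets the shared positions of low fold apart beyond these measures was not tested.

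**Figure D4:**
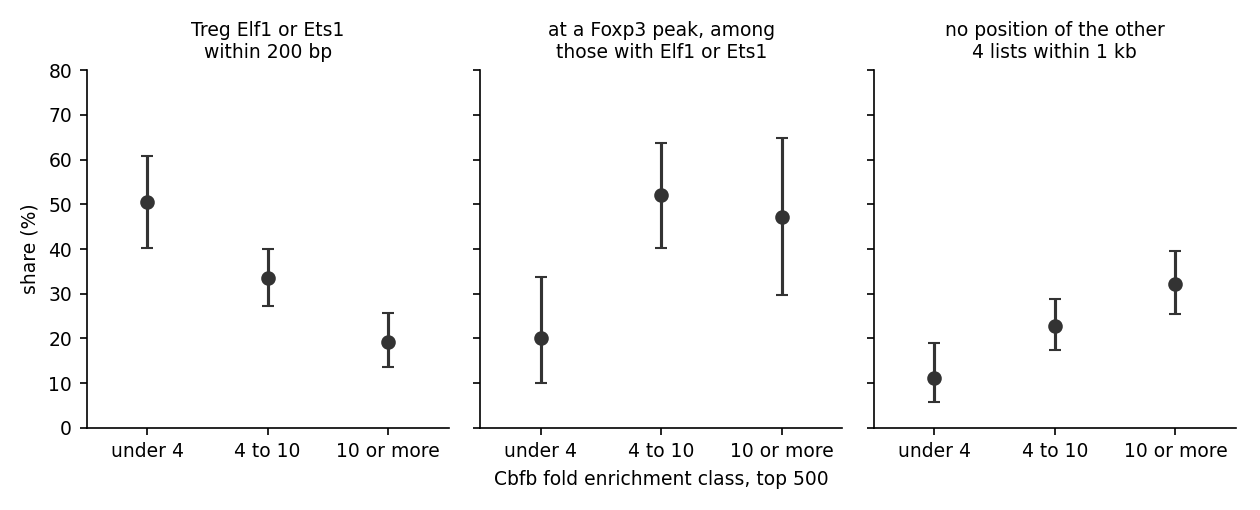
Shares (percent, with exact 95% intervals) for the 500 highest-scoring Treg Cbfb positions in 3 classes of fold enrichment. Left, the share with a Treg Elf1 or Ets1 position within 200 bp falls from 50.5% to 19.2%; middle, the share of those shared positions at a Foxp3 peak is 20, 52.0 and 47.1%; right, the share with no position of the other 4 lists within 1 kb rises from 11.1% to 32.2%.

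The 10 highest scores showed both kinds. Of the 10, 6 had a fold from 2.39 to 5.17, and the other 4 had a fold from 66.4 to 520. None of the 10 was at a Foxp3 peak.

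The highest score, 373, belonged to the position at 60969139 on chromosome 1, with a fold of 481 and a lower bound of 183. No other Cbfb position scored above 93.8. In CD4 an Elf1 position of 24.2-fold (rank 6746) lay 8 bp away, and the nearest Treg Elf1 position, 112 bp away, was weak, at 3.53-fold and rank 51208. The nearest Treg Ets1 position lay 281 bp away at 4.82-fold. So for neither Treg factor was the position nearest to the highest-scoring Cbfb position among its 10000 highest. This Cbfb position was the first of a stretch of 3 over 1222 bp. Inside the stretch lay 1 top 10000 position of each Treg factor, and 1 of the 3 Cbfb positions had such a partner within 200 bp.

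The second score, 93.8, lay at 70039223 on chromosome 4 with a fold of only 2.39. All 4 other lists had a position within 2 bp of it, with ranks of 1 (Treg Elf1), 3 (Treg Ets1), 551 (CD4 Elf1) and 3 (CD4 Ets1) and folds from 1.90 to 2.72. Rank 5, at 77578252 on chromosome 13, had a Cbfb fold of 3.24, and all 4 lists held a position on the same base, with folds from 2.78 to 3.59. Rank 3, at 5860704 on chromosome 3 (5.08-fold), coincided within 2 bp with the second highest Treg Ets1 position (9.92-fold) and the second highest CD4 Ets1 position (12.1-fold). Rank 8, at 3151525 on chromosome 6 (3.58-fold), lay 13 bp from the Treg Ets1 position of rank 15 and 14 bp from the CD4 Ets1 position of rank 10. Rank 6, at 5300375 on chromosome 2 (5.17-fold), and rank 10, at 108873068 on chromosome 11 (4.72-fold), had Treg Ets1 positions of ranks 50 and 7 at 3 and 119 bp. At these 6 positions the Ets1 partner ranked from 2 to 50 in Treg and from 2 to 26 in CD4.

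The other 3 of the 10 lay together on chromosome X, at 7170208, 7170482 and 7170819, with folds of 66.4, 520 and 332. CD4 Elf1 positions lay 8, 28 and 36 bp from them, at 22.2-fold, 91.1-fold and 214-fold. The Treg Elf1 list held nothing closer than 862 bp to any of the 3. Treg Ets1 had a position of rank 8006 at 48 bp from the first.

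At the other extreme were high scores that stood alone, outside dense stretches and with no deposited Treg Elf1 or Ets1 position within 1 kb. The first of these was rank 66, at 44963110 on chromosome 6, with a fold of 20.03 and a lower bound of 5.20. It was followed by rank 82 at 14002653 on chromosome 13 (11.3-fold), rank 86 at 41587259 on chromosome 4 (23.5-fold), rank 87 at 98302703 on chromosome 12 (39.2-fold) and rank 91 at 21716293 on chromosome 18 (13.1-fold). None of the 5 was at a Foxp3 peak, but only 1.17% of all top 500 positions with neither Treg factor within 200 bp were. The fold estimates of the 5 all exceeded those of the shared positions of ranks 2, 3, 5, 6, 8 and 10. The lower bounds of the fold overlapped, from 2.53 to 6.09 for the 5 and from 2.04 to 3.76 for the 6 shared positions.

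Cbfb positions of high rank also had nearer neighbours. The median distance to the nearest other Cbfb position was 4438 bp in the top 500, 5584 bp in the next 1500, 5988.5 bp in the next 8000 and 6424 bp in the rest. A neighbour within 1 kb was found for 22.2% (18.6 to 26.1), 12.4% (10.8 to 14.2), 11.1% (10.4 to 11.8) and 9.69% (9.51 to 9.86), where 9.86% of all positions had one. A few high positions were also near each other: 24 of the top 500 (4.80%, 3.10 to 7.06) had another position of those ranks within 500 bp, against 4 of the next 1500 (0.267%, 0.0727 to 0.681) for theirs. Counted the same way, the share was 0.425% in the next 8000 and 3.25% in the rest, a far larger group. The median distance between positions of the top 500 and their nearest neighbour of those ranks was 1826290 bp. No 2 positions of any list lay closer than 199 bp.

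A position was called locally dense when it lay in a window of 2.5 kb with 3 or more positions, and isolated otherwise, so an isolated position may still have a close neighbour. Dense positions made up 57 of the top 500 (11.4%, 8.75 to 14.5), where 2.66% of all were dense. Ranked by fold enrichment, 5.20% of the 500 highest were dense, and with windows of 1 and 5 kb 5% and 19.8% of the 500 highest scores were. Within the top 500 they were most frequent at ranks 1 to 100, with 27% (18.6 to 36.8), against 12% (7.27 to 18.3) of the next 150 and 4.80% (2.504 to 8.23) of the last 250. The share was 3.93% (3.01 to 5.04) in the next 1500, 3.25% (2.87 to 3.66) in the next 8000 and 2.56% (2.47 to 2.65) in the rest. High score and local density therefore overlapped in a minority of positions: 443 of the 500 highest were isolated, and of the 3232 dense positions 2856 ranked below 10000. At equal list length, how Cbfb compared with the other 4 lists depended on the length. Within its own 10000 highest positions 0.410% were dense, against 3.47 and 12.6% for Treg Elf1 and Ets1 and 2.00 and 11.5% for CD4 Elf1 and Ets1. Within the 2000 highest the Cbfb share, 1.25% (0.811 to 1.84), lay under the 7.35 and 2.65% of Treg and CD4 Ets1 but above both Elf1 lists, which had 0 of 2000. Within the 500 highest it was 4% (2.46 to 6.11), beside 4.2% (2.62 to 6.35) for Treg Ets1 and 3.80% (2.30 to 5.87) for CD4 Ets1, while both Elf1 lists had 0 of 500 (exact upper limit 0.735%).

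The 3232 dense positions formed 1025 stretches with a median span of 1930 bp. Of these, 901 (87.9%) held just 3 positions and 17 held 5 or more. No position of rank 1 to 10000 was in 724 of them (70.6%), and 37 had a position of the top 500. A member with a top 10000 Treg Elf1 or Ets1 partner was present in 119 stretches (11.6%) and a member at a Foxp3 peak in 55 (5.37%). In 306 (29.9%) none of the other 4 lists had a position at any score. Larger stretches were shared more often: 10.3% (8.41 to 12.5) of those with 3 positions, 15.0% (8.80 to 23.1) of those with 4 and 9 of the 16 with 5 to 9 (56.3%, 29.9 to 80.2) had an ETS partner, although a longer stretch has more chances to hold one.

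Below the top 500, dense positions were shared with ETS factors more often than isolated ones. In the next 1500 the shares were 20.3 and 8.19%, a difference of 12.2 points (3.71 to 24.2), then 8.85 and 3.24% (5.60 points, 2.69 to 9.70) and 4.13 and 1.16% in the rest (2.97 points, 2.30 to 3.77). Positions of 1 stretch are not independent, so these intervals, by Newcombe's method, are too narrow. With each stretch counted once, by its highest-ranked position, the differences shrank to 9.81, 3.30 and 2.02 points, the last outside its interval. Without positions under 4-fold they were 6.18, 6.36 and 2.77 points. With isolated positions weighted to the finer ranks that the dense ones held, the isolated shares were 8.35, 3.25 and 1.18%, so the differences stayed at 11.98, 5.59 and 2.95 points. The same order was found in each finer group of these ranks, but the intervals of the difference included 0 for the first 500 ranks after the top 500 and for the last group, beyond rank 100000. Moved by 10 kb, dense positions also had higher shares than isolated ones: 2.54 and 0.729%, 1.15 and 0.439%, and 0.718 and 0.380%. How much of the difference belongs to the neighbourhood was not tested.

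In the top 500 the order depended on how rank was treated. The plain shares were 47.4% (34.0 to 61.0) of dense and 29.8% (25.6 to 34.3) of isolated positions, but dense positions were concentrated at the very highest ranks, where sharing was most frequent. Isolated positions weighted to the ranks of the dense ones gave 50.7%, that is 28.9 shared positions of 57 where the dense ones had 27. At ranks 1 to 100 the dense share was the lower one, with 17 of 27 (63.0%, 42.4 to 80.6) against 58 of 73 (79.5%, 68.4 to 88.0). In the next 150 it was 7 of 18 (38.9%) against 43 of 132 (32.6%), and in the last 250 it was 3 of 12 (25%) against 31 of 238 (13.0%). The intervals of all 3 differences included 0.

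By factor, 38.6% of the dense positions in the top 500 had a Treg Elf1 partner, where isolated positions weighted to the same ranks had 32.4%. For Ets1 the shares were 33.3 and 44.8%. The plain isolated shares were 18.1 and 26.4%, and the factors were not tested against each other.

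Foxp3 peaks lay at fewer of the dense positions in the top 500, with 4 of 57 (7.02%, 1.95 to 17.0) against 14.7% (11.5 to 18.3) of isolated positions and 22.0% with isolated positions weighted to the same ranks. The interval of the plain difference, -13.2 to 2.48 points, included 0. At ranks 1 to 100, 1 of 27 dense and 23 of 73 isolated positions were at a Foxp3 peak, a difference of -27.8 points (-39.6 to -10.4). As positions of 1 stretch are not independent, this interval and the others of this paragraph for differences are too narrow. At lower ranks dense positions were at Foxp3 peaks more often, with 15.3 and 5.20%, 7.31 and 1.56%, and 1.68 and 0.413%. The differences of 10.05 points (2.92 to 21.4), 5.74 points (3.15 to 9.58) and 1.27 points (0.855 to 1.81) excluded 0, counting error only, and were 9.89, 5.74 and 1.26 points with weighting.

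**Figure D5:**
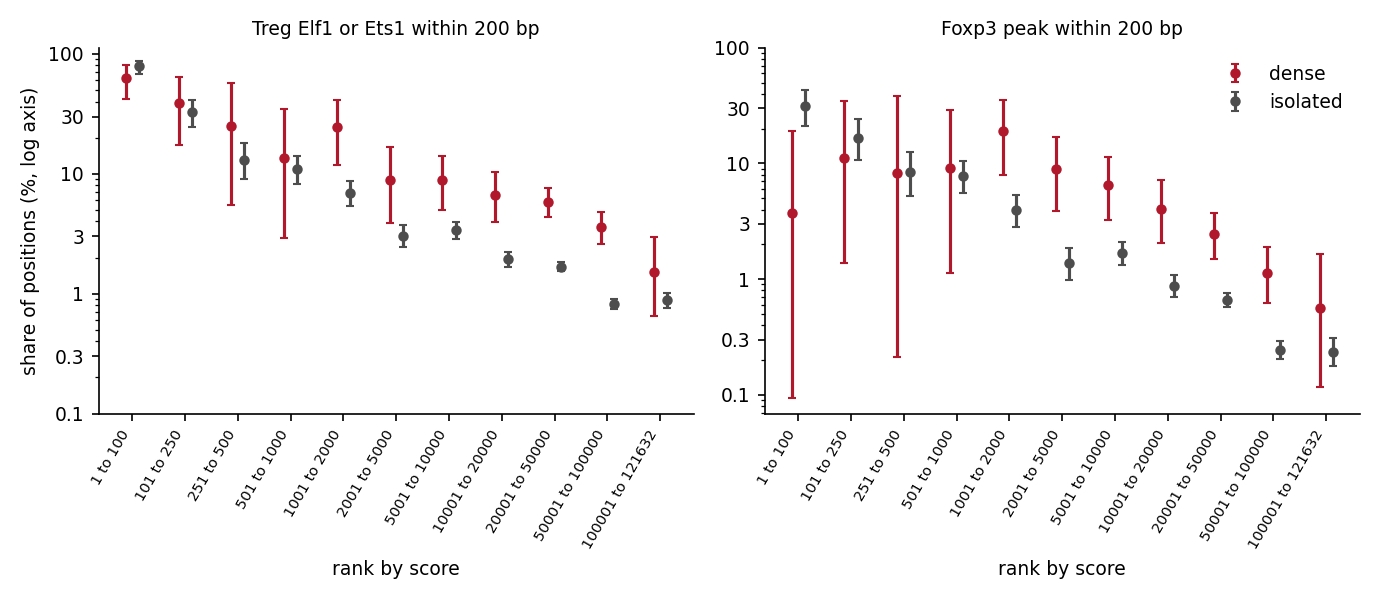
Share (percent, log axis) of dense (red) and isolated (grey) Treg Cbfb positions with a Treg Elf1 or Ets1 position (left) or a Foxp3 peak (right) within 200 bp, in 11 groups of rank, with exact 95% intervals. At ranks 1 to 100 dense positions lie below isolated ones in both panels (63.0 against 79.5% and 3.70 against 31.5%), and below rank 500 they lie above in every group.

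The stretches with the most positions were of unlike kinds. The one with the most, 17 positions, lay on chromosome X from 7155215 to 7161184. It held 6 positions of the top 500, had a median fold of 16.5 with a range from 2.14 to 186, and 6 of its positions had a Treg ETS partner and 1 a Foxp3 peak. Across it the score did not track the fold: the position at 7156358 had 26.5-fold but rank 27491, while that at 7158837 had 12.02-fold and rank 183. Next came the stretch of 6 positions from 7170208 to 7172228, described above for its 3 leading positions, with 5 positions of the top 500 and a median fold of 197. Between these stretches lay 9024 bp without a Cbfb position that passed the FDR limit. Elf1 and Ets1 were present in the larger stretch, with up to 55.3-fold for Treg Elf1 and 19.6-fold for Treg Ets1. In the smaller stretch they were sparse in Treg, with 1 position each at 4.40-fold and 12.6-fold, and strong for Elf1 in CD4, with 4 positions of up to 214-fold.

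The third, 6 positions on chromosome 18 from 3004656 to 3008710, held 3 of the top 500, but its folds ran only from 1.79 to 3.88. All 4 other lists were also dense there, with 5 and 9 positions for Treg Elf1 and Ets1 and 6 each in CD4. The remaining pair, of 6 positions each, had no position of the top 500. One lay on the unplaced contig set Un_random between 5554762 and 5557773, with folds up to 6.10. The other lay on chromosome X between 34519012 and 34523023, with folds from 0.373 to 34.0.

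In 6 stretches 3 or more positions of the top 500 were found. They comprised the first 3 above and short stretches on chromosomes 10 (21862155 to 21862772), 12 (75904936 to 75905460) and 3 (8244714 to 8246545). The last 3 had 3 positions each, all of the top 500, with folds from 1.64 to 2.68, from 1.92 to 2.72 and from 2.28 to 3.66. Treg Elf1 or Ets1 partners stood at 3, 3 and 2 of their positions, and none was at a Foxp3 peak. Of these 6 stretches, only the 2 on chromosome X had any position at or above 4-fold. These 6 were singled out after their values had been seen.

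On chromosome X the Cbfb list held about as many positions per length as elsewhere, unlike the other lists. In the top 500 chromosome X carried 2.34 positions per 10 Mb (exact Poisson 95% interval 1.66 to 3.20), against 1.82 (1.66 to 2.00) over the numbered chromosomes, with overlapping intervals. The gap was not seen outside dense stretches: there X held 1.62 (1.07 to 2.36) and the numbered chromosomes 1.65 (1.49 to 1.81). Of the 57 dense positions of the top 500, 12 (21.1%) were on X, 11 of them in the 2 stretches between 7155215 and 7172228. Without those 11, X held 1.68 per 10 Mb (1.12 to 2.43) at these ranks. At lower ranks X carried 6.60 (5.43 to 7.96) against 5.61, 28.6 (26.1 to 31.3) against 30.4, and 467 (456 to 477) against 420 per 10 Mb. The 500 highest positions of the 4 other lists held between 0 and 0.3 per 10 Mb on X. The share with an ETS partner was lower on X than on any numbered chromosome, although its interval overlapped those of several of them: 17 of the 625 among the 10000 highest had a Treg Elf1 or Ets1 partner (2.72%, 1.59 to 4.32), while the numbered chromosomes ran from 4.29% on chromosome 15 to 8.76% on chromosome 19.

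Among the numbered chromosomes, density varied by 2.30 and 2.36 times between the lowest and highest in the top 500 and the next 1500, where few positions fall on each. In the next 8000 it ran from 21.5 per 10 Mb (19.2 to 24.0) on chromosome 7 to 36.6 (32.9 to 40.6) on chromosome 16, and in the last group from 304 on chromosome 7 to 496 on chromosome 16. Chromosome 7, poorest in Cbfb positions in these 2 groups, had one of the higher shares with an ETS partner among the 10000 highest, 7.75% (5.36 to 10.8), and chromosome 16 one of the lower, 4.41% (2.67 to 6.80), with overlapping intervals.

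Unplaced contigs held 11 of the 500 highest positions (2.20%), against 0.133, 0.225 and 0.0976% of the lower groups. The 1 Mb at the start of the part of each chromosome that holds positions had 10 of the remaining 489 (2.04%, 0.985 to 3.73). Of these, 7 had a Treg ETS partner, and the share in the next 1500 was 0.601% (0.275 to 1.14). The 1 Mb at the other end had 12 of the 489 (2.45%, 1.27 to 4.25), 4 of them with a Treg ETS partner, against 0.801% (0.415 to 1.40) of the next 1500.

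The score column itself bears on these ranks. Scores were heavily tied: the list held 4580 distinct scores, and 2 of them covered 25.9% of the positions that passed the FDR limit. Of the 10000 highest Cbfb positions, 41.4% lay in groups of at least 100 equal scores, where the other lists had from 0 to 1.34%. The scores also fell off steeply, by 58.3 times from rank 1 to rank 500, against 3.02 to 7.85 times in the other lists. Part of this fall lay between the first 2 positions, as the score was 373 at rank 1, 93.8 at rank 2 and 6.40 at rank 500. At the rank limits the scores inside and outside were equal. Rank 500 and the rank after it both had 6.40 (5.60-fold and 4.36-fold), rank 2000 and the one after it both had 5.20 (6.79-fold each), and rank 10000 and the one after it both had 3.996 (4.36-fold and 2.14-fold). Groups of 35, 13 and 32 equal scores spanned the limits.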

How the data were processed

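The submitters' processing notes name Bowtie 0.12.7 and the mouse genome build mm9. The authors deposited 1 list of single-base positions per library. Per the file headers, each position has a score, an FDR (a q-value, the p-value adjusted for many tests) and a fold enrichment as lower bound and maximum likelihood estimate. The caller, its thresholds, the control and the depth are not given in the sources used here. Foxp3 peaks came as 1 list from combined replicates, per the labels.

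Positions that met the FDR limit of 0.01 were ranked by score, with ties ordered by lower bound of fold, estimate and coordinate. Positions within 200 bp counted as shared. A Foxp3 peak counted when its interval, widened by 200 bp, held the position. Density used windows of 2.5 kb with 3 or more positions. Positions moved by 10 kb served as comparison. Chromosome length was the highest coordinate in any list. Shares have Clopper-Pearson and counts per 10 Mb exact Poisson 95% intervals, which cover counting error only. With 1 library per list there was no test and no p-value. The named positions were the 10 highest scores, the 5 highest isolated, the 5 highest with both Treg factors, the 5 highest isolated with neither deposited within 1 kb, and the 5 stretches with the most positions. The members, lists and rules were chosen with earlier results of these data known, and the fold classes after these values had been seen. Planned motif searches and gene lists need an mm9 genome and annotation and were not run. Functions were tested on simulated data. Python 3.11.15, numpy 2.4.6, pandas 2.3.3, scipy 1.17.1 and matplotlib 3.10.9 were used.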

Additional observations from a re-analysis of the deposited data

How the results depend on the processing

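No paired analysis was possible because each list compared comes from 1 library. Alternatives were another distance, partner list, ranking, FDR limit, window, neighbour pool, Foxp3 distance and way of counting stretches. Equal scores kept in 1 group, isolated positions weighted to the finer ranks of dense ones, positions under 4-fold left out and the X region of the 2 largest stretches left out were chosen after seeing the data.

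At ranks 1 to 500 the share with Treg Elf1 or Ets1 (31.8%) left its interval within 100 bp (27.6%), with partners at an FDR of at most 0.01 (38.8%), ranked by fold (5.60%) or its lower bound (7.40%) and without fold under 4 (27.2%). The dense share (11.4%) was 5 and 19.8% with windows of 1 and 5 kb, 2.40 and 34.8% with 5 or 2 positions required, 14.6% counting all deposited positions, 4.60% counting the 10000 highest, 5.20% ranked by fold and 8.73% without fold under 4. The median spacing (4438 bp) was 3538 bp to all deposited positions and 1826290 bp within the same ranks. The density on X (2.34 per 10 Mb) was 1.62 outside dense stretches, 1.80 with each stretch counted once and 1.68 without the X region. Over all ranks the Foxp3 share of dense minus isolated positions (1.88 points) was 1.18 within 0 bp, 2.86 within 500 bp and 2.48 without fold under 4. Dense minus isolated ETS sharing at ranks 1 to 500 (17.6 points) turned to -3.30 points with isolated positions weighted to the finer ranks of dense ones, and ran from 4.65 to 26.7 points in the other 8 alternatives. The ETS share fell over all 4 rank groups in 11 of 12 alternatives and the dense share over all groups with a value in 9 of 10; the exception in both was the ranking by fold, where the next 8000 had less than the rest (0.688 against 1.64% for ETS and 2.14 against 2.67% for density). X minus the numbered chromosomes at ranks 1 to 500 (0.521 per 10 Mb) turned to -0.0255 outside dense stretches and -0.139 without the X region. Unknown depth and single libraries limit all values.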
